A study of Capra hircus with 4 samples.

Results

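Cycling granulosa nuclei are the nuclei of the goat ovary that carried transcripts of dividing cells together with transcripts of the granulosa lineage. A nucleus was taken when it held 1000 or more unique molecular identifiers (UMIs, the count of distinct RNA molecules), a UMI of at least 4 of 9 cycling genes (MKI67, TOP2A, CENPF, CDK1, SGO1, MYBL2, BUB1, ANLN and KIF11), and a UMI of FSHR or NR5A2. In all, 2326 of 48332 nuclei met these conditions: 312 in Du'an replicate 1, 481 in Du'an replicate 2, 1081 in Nubian replicate 1 and 452 in Nubian replicate 2. The nuclei were thus chosen by the measured UMIs of these 11 genes, so their values are given as a description with no test.

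Nuclei of whole ovaries from 2 Du'an goats (litter size of 1) and 2 Nubian goats (litter size of 3, from a group of 3 or more) were profiled by droplet sequencing of RNA 3' ends, with 1 library per goat. All goats were about 3 years old and had received an intravaginal device with 300 mg of progesterone for 17 days to bring estrus into step, and no hormone to induce superovulation. Breed, litter size and goat cannot be told apart beyond the 2 goats of each breed, and follicles of every size share a library. The libraries held 40573246, 60566681, 71613892 and 52783453 UMIs. Here and below, runs of 4 values are in the order Du'an replicate 1, Du'an replicate 2, Nubian replicate 1 and Nubian replicate 2. Levels are in CPM, the UMIs of a gene per 1000000 UMIs summed over the nuclei of a class in a library. Some barcodes occurred in several libraries (502 over all pairs of libraries), of which 2 were barcodes of cycling granulosa nuclei.

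Granulosa cells surround the oocyte, and their division makes the follicle grow. Follicle-stimulating hormone acts through FSHR, raises cyclin D2, and drives the cells out of G1 and into DNA synthesis. The cells then copy their DNA with the MCM helicase and the DNA polymerases, and separate the chromosomes with the spindle, the kinetochores and the kinases CDK1, PLK1 and Aurora. As follicles mature, granulosa cells gain the luteinizing hormone receptor LHCGR and aromatase (CYP19A1). After the ovulatory surge they leave the cell cycle, with a rise in cyclin-dependent kinase inhibitors. Genes of the cell cycle are transcribed together, so their high level in nuclei gated on 9 of them is a property of the gate.

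Cycling genes were absent from most nuclei with a UMI of FSHR or NR5A2. Of 31083 such nuclei (granulosa-gated nuclei), 22085 (71.1%) held none of the 9 genes, and these are the resting nuclei below. A UMI of 1 cycling gene was found in 5368 nuclei (17.3%) and of 2 genes in 935 nuclei (3.01%). The numbers then changed little: 369, 343, 388, 414, 466, 463 and 252 nuclei held 3, 4, 5, 6, 7, 8 and 9 of the genes. The threshold thus lay in the flat stretch of this distribution. Nuclei just outside it, with 3 genes, held a median of 5 UMIs of the 9 genes at a median depth of 4606 UMIs. Nuclei just inside it, with 4 genes, held a median of 9 UMIs at a depth of 4070 UMIs. The 9 genes together stood at 934 CPM in the former and 1742 CPM in the latter. Depth rose with the number of genes above 4, to a median of 15982 UMIs in nuclei with all 9. The 6672 nuclei with 1 to 3 genes were left out of both classes.

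**Figure D1:**
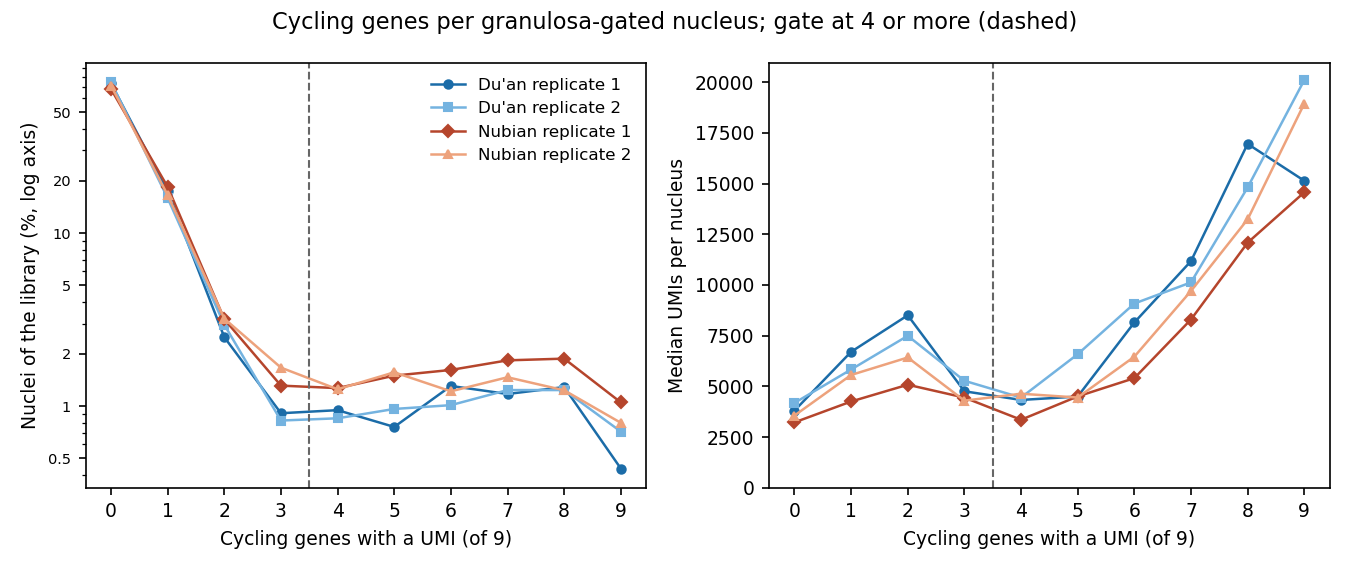
Left, the share of granulosa-gated nuclei (percent, log axis) that held a UMI of 0 to 9 of the cycling genes, with a line per library, and right, the median UMI count of those nuclei. The dashed line marks the gate at 4 genes, and the share is nearly flat from 3 genes on, at 1.19% with 3 and 1.10% with 4 genes over all libraries.

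Every gate gene was present in every library. MKI67, a coat protein of mitotic chromosomes and the usual label of dividing cells, stood at 225, 244, 310.2 and 277 CPM in cycling nuclei. It had a UMI in 79.5, 87.1, 83.6 and 78.5% of them. TOP2A, the topoisomerase that untangles copied DNA, stood at 497, 394, 642 and 333 CPM. CENPF, which binds kinetochores and microtubules, stood at 906, 825, 1584 and 768 CPM, highest in Nubian replicate 1. CDK1, the kinase that starts mitosis, stood at 121, 104, 136 and 114 CPM, the narrowest range of these genes. The granulosa gate genes did not follow the cycling genes. FSHR stood at 2695, 2234, 1393 and 1317 CPM in cycling and 1684, 2139, 1685 and 1327 CPM in resting nuclei, higher in the cycling nuclei of both Du'an libraries, lower in Nubian replicate 1 and nearly level in Nubian replicate 2. NR5A2, a nuclear receptor that granulosa cells need for luteinization, stood at 948, 1632, 1755 and 929.6 CPM in cycling and 599, 1829, 1521 and 1202 CPM in resting nuclei.

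The label was checked against 12 granulosa markers outside the gate, among them FST, CHST8, INHA, INHBB, GATA4, HSD17B1, CYP19A1 and SERPINE2. At least 3 of them had a UMI in 93.6, 90.2, 98.1 and 90.9% of the cycling granulosa nuclei. In resting nuclei, which were shallower, the shares were 54.5, 68.7, 85.2 and 56.5%. The summed level of the 12 markers was 3988, 3638, 7681 and 2224 CPM in cycling nuclei and 1899.6, 3764, 7179 and 2332 CPM in resting nuclei, so the ranges of both classes overlapped. SERPINE2, a protease inhibitor secreted by granulosa cells, gave the most UMIs of the list (mean of 1367 CPM). In 127 other cycling nuclei, which passed the cycling gate with no UMI of FSHR or NR5A2, the summed level was 307, 344, 689.6 and 132 CPM, with FOXL2 and AMHR2 at 0. Those nuclei were chosen for having no UMI of FSHR or NR5A2, so their low level follows at least in part from the gate. As a class, the cycling granulosa nuclei carried these markers at summed levels in the range of the resting nuclei.

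The label was less certain nucleus by nucleus, because 1 UMI of FSHR or NR5A2 was common outside the granulosa. Of nuclei with at least 4 markers of blood endothelium, 50.3, 73.8, 70.2 and 53.5% had such a UMI at median depths of 3552.5, 3643.5, 5221.5 and 5593.5 UMIs, and 10.3, 13.3, 15.9 and 10% had 5 or more. Over all nuclei of 1000 or more UMIs the shares with 1 UMI were 77.8, 83.6, 86.6 and 75.4%, at median depths of 3441, 4087, 3328 and 3534 UMIs. Cycling granulosa nuclei held medians of 31, 38, 21 and 22 UMIs of both genes together and resting nuclei 6, 12, 8 and 6. A stricter gate was therefore added after the data were seen, with at least 5 UMIs of FSHR and NR5A2 and fewer than 3 markers of every other cell type. It kept 81.7, 63.4, 77.2 and 70.8% of the cycling granulosa nuclei. The UMIs of the class went from 3567517, 6578070, 9850128 and 6442496 to 2819100, 3585130, 7442451 and 2944250, so the nuclei left out were deeper on average than those kept, most so in Nubian replicate 2. For the first comparison, values with this gate are given for some genes of the lists, not for every gene whose call changed. The same holds for nuclei of 4000 to 10000 UMIs within it (its depth window). For the other comparisons the counts of the stricter gate are given.

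Cycling granulosa nuclei were deeper than resting nuclei in every library. Their median was 10274, 10313, 7623 and 8290 UMIs against 3808, 4186, 3226 and 3563.5 UMIs. At least 3 markers of another cell type had a UMI in 14.4, 34.5, 17.6 and 24.1% of them. In resting nuclei the shares were 23.8, 36.4, 27.5 and 22.3%. Macrophage markers summed to 84.7, 383, 131 and 1362 CPM in cycling and 37.8, 518, 163 and 297 CPM in resting nuclei, and Nubian replicate 2 stood apart. Blood endothelial markers summed to a mean of 109 CPM in cycling and 283 CPM in resting nuclei. Stromal markers, 6 with a UMI and led by TSHZ2, summed to 568, 981, 431 and 586 CPM in cycling and 1070.1, 1375, 918 and 1601 CPM in resting nuclei, lower in the cycling nuclei of every library. At least 3 of them had a UMI in 9.29, 17.3, 10.2 and 14.2% of the cycling nuclei. Of 10 oocyte genes, 5 had UMIs in cycling nuclei, led by GDF9, and summed to 3.36, 1.98, 1.12 and 1.09 CPM, while BMP15, OOSP2, ZP4, FIGLA and ZP2 were at 0. The filters of the study would remove 36.9, 28.3, 23.3 and 22.8% of the cycling nuclei, against 7.55, 10.6, 7.24 and 7.25% of the resting nuclei. Of the cycling nuclei, 7.37, 14.1, 15.3 and 9.07% were among the highest 10% of doublet scores in their library. These differences in depth, doublet score and markers are met below by the stricter gate, the depth window and other choices of nuclei.

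The first comparison asked what else differed between cycling and resting granulosa nuclei of the same goats. UMIs were summed per class and library, the 11 gate genes were left out, and 14763 genes were tested with edgeR's quasi-likelihood test, blocked by goat, with p-values adjusted after Benjamini and Hochberg. At an adjusted p below 0.05, 934 genes were higher (6.33% of those tested) and 808 lower (5.47%) in cycling nuclei, with a median log2 fold change of 0.01 over all genes. The count of lower genes moved more than that of higher genes when a library was left out. Without Du'an replicate 1, Du'an replicate 2, Nubian replicate 1 and Nubian replicate 2, the counts were 518, 521, 461 and 1049 higher and 187, 305, 184 and 940 lower. With the stricter gate 12937 genes were tested, 1566 higher and 1248 lower. Of the 1742 calls, 1330 (76.3%) were called in the same direction with the stricter gate, and 1058 (60.7%) when its nuclei also had 4000 to 10000 UMIs. The shares were 97.1% without the 10% of nuclei with the highest doublet scores, 91.3% with nuclei of 2000 or more UMIs and 90.8% with the filters of the study. Log2 fold changes are given ± SE, and levels come from 4 sums per class.

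**Figure D2:**
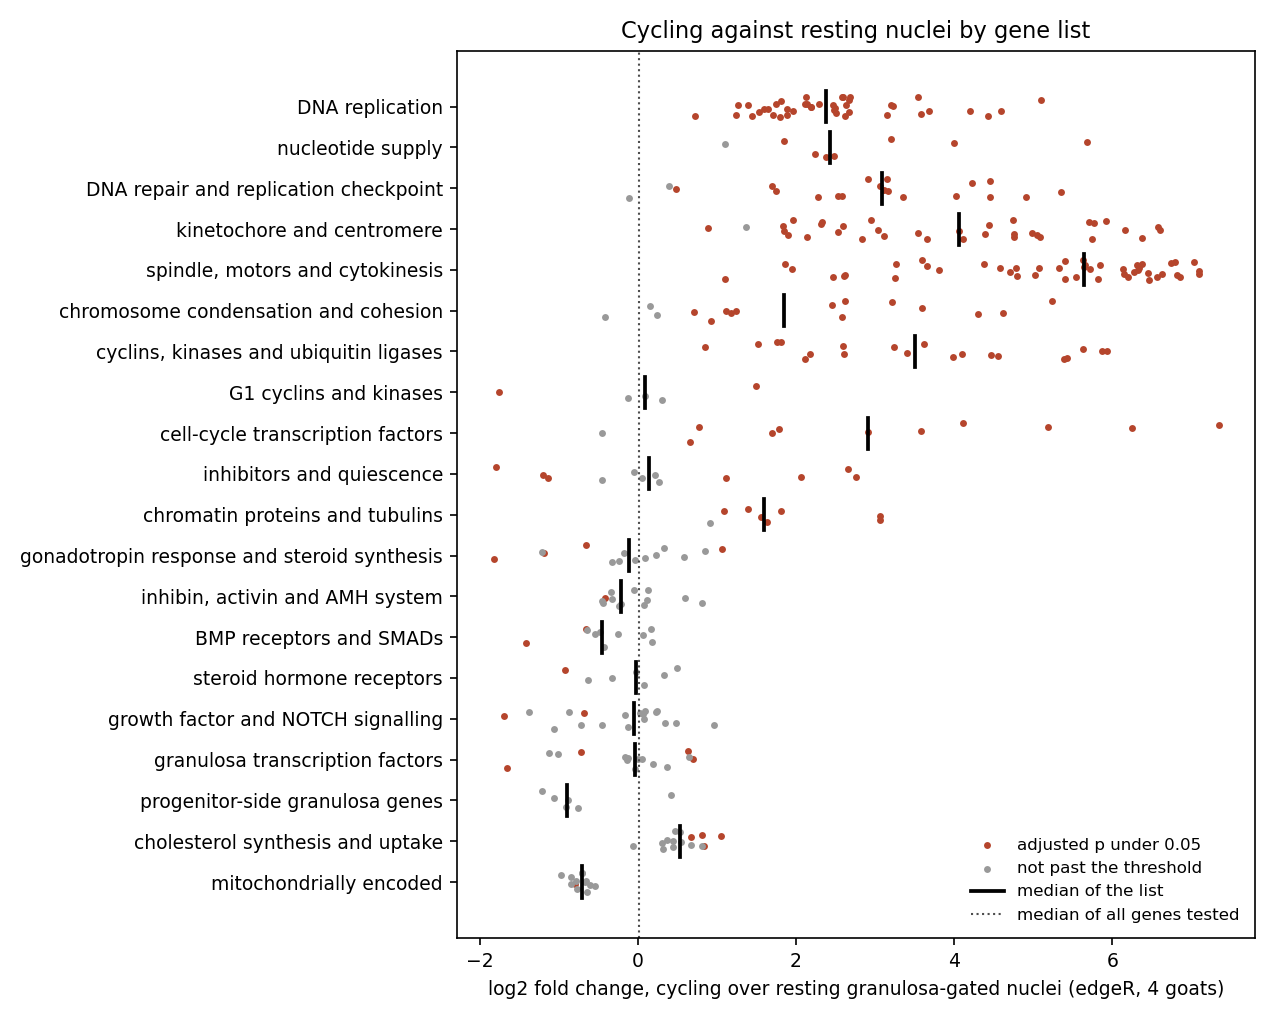
Log2 fold change of cycling against resting granulosa nuclei (horizontal axis) for each tested member of 20 gene lists (rows), from 4 goats. Red points were called at an adjusted p below 0.05 and grey points were not, a black bar is the list's median, and the dotted line is the median of all genes at 0.01. The cell-cycle lists lie to the right, which follows from the gate, except the G1 cyclins (median 0.10) and the inhibitors (0.14). The medians of the remaining lists run from -0.90 (progenitor-side genes) to 0.53 (cholesterol genes).

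Genes that copy DNA were higher in cycling nuclei of every goat, which follows from the gate and is given as a description. All 42 tested DNA replication genes were called higher, beside 6.33% of all genes, with a median log2 fold change of 2.38. Their summed level was 2055, 1771, 2188 and 1997 CPM in cycling and 449, 431, 449 and 508 CPM in resting nuclei, so the 4 cycling values lay close together. PRIM2, a subunit of the primase that starts new strands, stood at 478, 399.7, 594 and 374 CPM against 95.6, 69.2, 83.2 and 97.9 CPM. MCM6, a subunit of the replicative helicase, stood at 42.3, 30.4, 27.1 and 47.3 CPM against 9.52, 10.8, 10.2 and 12.2 CPM. PCNA, the clamp that holds polymerases on DNA, stood at 5.61, 25.5, 14.7 and 107 CPM against 2.30, 4.68, 2.71 and 8.27 CPM. PCNA was higher in each goat, and highest in Nubian replicate 2, where macrophage markers were also highest (84.7, 383, 131 and 1362 CPM over the libraries). Its log2 fold change was 2.62, and 2.21 without that library and 1.48 with the stricter gate. The part of macrophage RNA in its level was not tested. Of 8 genes of nucleotide supply, 7 were called higher (median 2.43), among them RRM1, the large subunit of ribonucleotide reductase, at 89.1, 75.4, 85.4 and 82.7 CPM against 24.3, 23.2, 22.8 and 26.1 CPM. Of 20 repair and checkpoint genes, 18 were called higher (median 3.08). BRIP1, a helicase that works with BRCA1, stood at 339.7, 279.7, 386 and 214 CPM against 34.5, 29.6, 37.3 and 37.2 CPM. The mismatch repair gene MSH6 was not called (-0.12 ± 0.18).

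Genes that separate chromosomes were the furthest apart, again as the gate implies, since most of its genes act in mitosis. All 47 spindle, motor and cytokinesis genes were called higher (median 5.64), and 34 of 35 kinetochore and centromere genes (median 4.07). CENPE, the kinetochore motor that brings chromosomes to the spindle equator, stood at 521, 427, 582 and 377 CPM against 6.53, 6.45, 9.43 and 5.37 CPM. AURKA, a kinase of the spindle poles, stood at 51.6, 49.0, 72.2 and 53.6 CPM against 0.322, 0.405, 0.743 and 0.671 CPM. DIAPH3, a formin needed for cytokinesis, stood at 1677, 1126, 1769 and 1113 CPM against 17.7, 22.2, 34.9 and 28.3 CPM. For each of them, the lowest cycling library lay far above the highest resting one. MIS12, which is part of the kinetochore core in all cells, was not called (1.37 ± 0.35). Of 16 condensation and cohesion genes, 13 were called higher (median 1.85), while STAG1 (0.24 ± 0.15), STAG2 (0.15 ± 0.15) and TOP2B (-0.41 ± 0.14) were not. Under the stricter gate their log2 fold changes were 0.36, 0.21 and -0.49. There STAG1 was called higher and TOP2B lower, and STAG2 was not called. All 20 later cyclins, kinases and ubiquitin ligases were called higher (median 3.51). CCNB1, the cyclin partner of CDK1, stood at 33.1, 30.1, 46.8 and 32.9 CPM against 0.276, 0.665, 0.77 and 0.85 CPM, and CCNE2, a cyclin of the entry into S phase, at 9.53, 13.8, 15.1 and 10.1 CPM against 1.15, 1.13, 1.09 and 1.39 CPM. Of 11 cell-cycle transcription factors, 10 were called higher (median 2.92), with FOXM1, which drives mitotic genes, at 17.1, 15.5, 22.8 and 11.3 CPM against 0.046, 0.0578, 0.212 and 0.0894 CPM. Of 8 chromatin proteins and tubulins, 7 were called higher (median 1.59), and HMGB1 was not (0.92 ± 0.24). With the stricter gate HMGB1 was called higher, at a smaller 0.47, and so were all 8 genes of the list.

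The D-type cyclins, which couple growth signals to the cell cycle, did not share a direction. CCND3 stood at 34.5, 76.6, 24.97 and 77.5 CPM in cycling and 172, 258, 77.8 and 231 CPM in resting nuclei, lower in every goat. It fell, with a log2 fold change of -1.75 ± 0.17, adjusted p = 0.00128 by edgeR, and was called without each library in turn, with the stricter gate (-1.97) and in its depth window (-2.48). CCND2, the cyclin D that follicle-stimulating hormone raises in granulosa cells, stood at 189, 142, 68.0 and 139.9 CPM against 78.6, 140.4, 102 and 114 CPM, and the classes overlapped (0.30 ± 0.27, adjusted p = 0.476 by edgeR). CDK4, a partner kinase of the D cyclins, was called higher (1.497 ± 0.28, adjusted p = 0.0204 by edgeR). The CDK4 call was lost with the stricter gate (0.60, adjusted p = 0.135 by edgeR) and without Du'an replicate 1, Du'an replicate 2 or Nubian replicate 1. Of the 5 genes of this list, 1 rose and 1 fell, beside 6.33% and 5.47% of all genes.

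Inhibitors of the cell cycle did not move together. Of 12 tested, 4 rose and 3 fell, beside 6.33% and 5.47% of all genes, with a median of 0.14. CDKN1A (p21), which arrests cells after hormone or damage signals, stood at 3.92, 5.47, 2.94 and 19.9 CPM in cycling and 14.5, 13.2, 4.97 and 46.7 CPM in resting nuclei. The classes overlapped across goats, but within each goat the cycling nuclei were lower, and CDKN1A fell (-1.20 ± 0.23, adjusted p = 0.0229 by edgeR). Its log2 fold change was -2.16 with the stricter gate. CDKN1C (p57) and BTG2, an antiproliferative gene, also fell, by 1.79 and 1.14 on the log2 scale (adjusted p = 0.00807 and 0.00967 by edgeR). CDKN1B (p27), an inhibitor of luteinizing granulosa cells, stood at 13.7, 16.6, 10.8 and 14.0 CPM against 14.6, 16.6, 11.7 and 16.5 CPM and was not called (-0.05 ± 0.15, adjusted p = 0.841 by edgeR). On the other side, RBL1 (p107), a pocket protein that itself is a target of E2F factors, stood at 184, 139, 182 and 132 CPM against 21.7, 25.9, 27.4 and 22.3 CPM (2.76 ± 0.15). CDKN2C (p18) was higher by 2.65, CDKN2D (p19) by 2.06 and CCNG2 by 1.11 on the log2 scale. CDKN2D was too low to be tested with the stricter gate, which instead called RBL2 higher (0.44, adjusted p = 0.0234 by edgeR) and CCNG1 lower. The list then had 4 higher and 4 lower of 11, beside 1566 and 1248 of all 12937 genes. The calls of RBL1 and CDKN2C were made without each library in turn. Those of CDKN2D and CCNG2 were lost without Du'an replicate 1 or Nubian replicate 1, and that of CCNG2 also without Du'an replicate 2. Those of CDKN1A, CDKN1C and BTG2 were lost without Du'an replicate 1, that of CDKN1A also without Du'an replicate 2, and those of CDKN1C and BTG2 also without Nubian replicate 1.

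**Figure D3:**
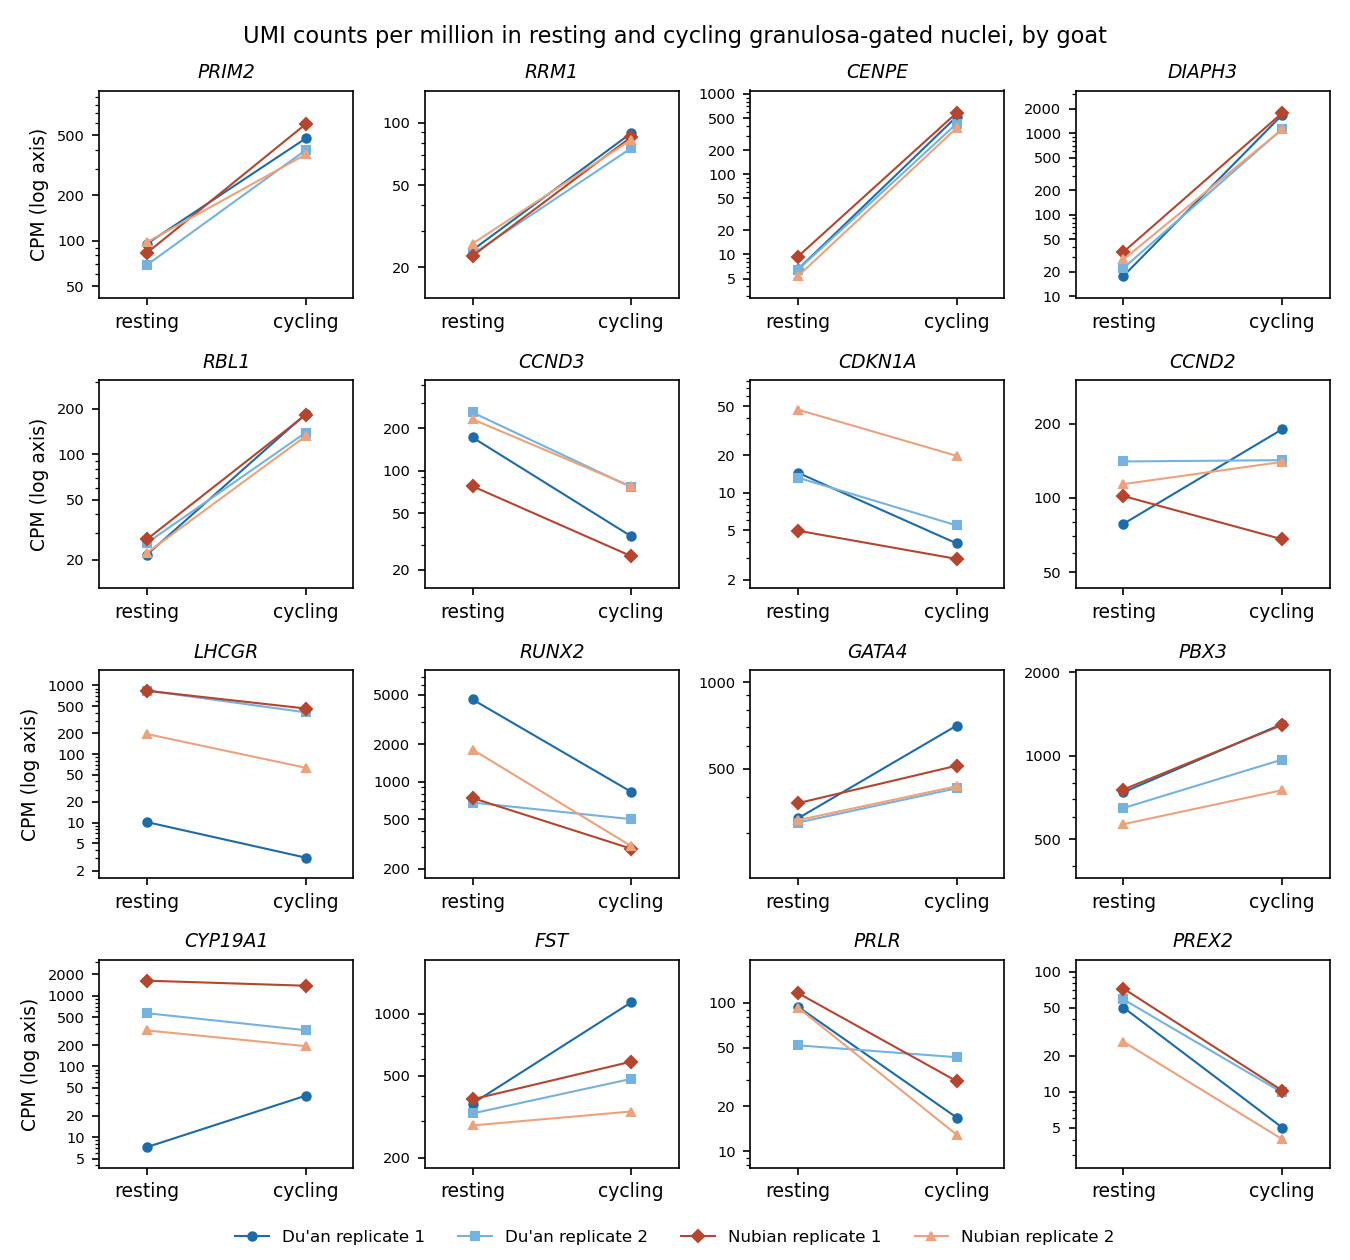
Level in resting (left) and cycling (right) granulosa nuclei for 16 genes, in CPM on log axes, with a line per goat. The lines of PRIM2, RRM1, CENPE, DIAPH3 and RBL1 rise in all 4 goats, those of CCND3, CDKN1A and LHCGR fall in all 4, and those of CYP19A1 and CCND2 run in different directions.

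Among 14 genes of the gonadotropin response and of steroid synthesis, 1 rose and 3 fell, beside 6.33% and 5.47% of all genes (median -0.11). With the stricter gate 2 rose and 4 fell, LOC102173131 and ADCY9 among the latter, beside 1566 and 1248 of all 12937 genes. In its depth window 3 rose and 5 fell of 13, beside 1080 and 878 of 11177 genes. LHCGR, the receptor that takes over from FSHR as follicles mature, stood at 3.08, 405, 461 and 63.0 CPM in cycling and 10.2, 843, 836 and 196 CPM in resting nuclei. The goats differed widely and the classes overlapped, but cycling nuclei were lower within every goat. LHCGR fell (-1.18 ± 0.19, adjusted p = 0.0115 by edgeR), was called without each library in turn, and stood at -1.30 with the stricter gate and -1.72 in its depth window. PRLR, the prolactin receptor, also fell (-1.82 ± 0.41, adjusted p = 0.0378 by edgeR). PRLR lost its call without Du'an replicate 1, Nubian replicate 1 or Nubian replicate 2 and had -2.09, adjusted p = 0.000101 by edgeR with the stricter gate. PDE4D, a cAMP phosphodiesterase, was called lower (-0.66 ± 0.15, adjusted p = 0.0389 by edgeR), but its direction reversed to 0.25 with the stricter gate and 0.26 in its depth window, with no call in either. CYP19A1 stood at 38.7, 326, 1385 and 194 CPM against 7.26, 566, 1632 and 323 CPM. It ran in both directions across goats and was not called (0.08 ± 0.51, adjusted p = 0.928 by edgeR).

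Calls in local growth factor systems were all in the lower direction, beside 5.47% of all genes. Of 13 genes of the inhibin, activin and AMH system, 0 rose and 1 fell (ACVR2A, a type II activin receptor, -0.41 ± 0.10, adjusted p = 0.0424 by edgeR), and that call was lost with the stricter gate. FST, the activin-binding protein follistatin, stood at 1136, 483, 586 and 335 CPM against 367, 328, 384 and 287 CPM and missed the threshold (0.81 ± 0.23, adjusted p = 0.0669 by edgeR). FST was called with the stricter gate (0.64, adjusted p = 0.0239 by edgeR) and in its depth window (0.70, adjusted p = 0.0307 by edgeR). AMH, made by granulosa cells of small follicles, stood at 53.5, 60.0, 10.96 and 19.4 CPM against 23.5, 61.4, 19.6 and 20.2 CPM (0.12 ± 0.29, adjusted p = 0.81 by edgeR). Of 10 BMP receptors and SMADs, 0 rose and 2 fell: ACVR1, a type I receptor (-0.66 ± 0.13, adjusted p = 0.0222 by edgeR), and SMAD7, an inhibitor of the pathway (-1.41 ± 0.32, adjusted p = 0.0386 by edgeR). SMAD7 stood at 5.89, 14.9, 4.16 and 10.2 CPM in cycling and 34.0, 22.9, 15.6 and 21.3 CPM in resting nuclei, with no overlap. BMPR1B, the receptor altered in prolific sheep, was not called (-0.43 ± 0.20, adjusted p = 0.21 by edgeR) or with the stricter gate. It was called lower in that gate's depth window (-0.43, adjusted p = 0.0337 by edgeR) and with all gated nuclei of 4000 to 10000 UMIs (-0.49, adjusted p = 0.0339 by edgeR). With the latter nuclei 5 of the 10 genes were lower, beside 1084 of all 12574 genes. Of 7 steroid hormone receptors, 0 rose and 1 fell (NR2F2, -0.92 ± 0.15, adjusted p = 0.0122 by edgeR). NR2F2, also a gene of theca and stromal cells, lost its call with the stricter gate. The stromal markers given above were lower with it in every goat, and their part in this value was not tested. Of 18 growth factor and NOTCH genes, 0 rose and 2 fell: IRS1, an adaptor of the insulin and IGF1 receptors (-0.68 ± 0.13, adjusted p = 0.0228 by edgeR), and the NOTCH ligand JAG1 (-1.69 ± 0.28, adjusted p = 0.0134 by edgeR). Each of these 6 calls was lost without Du'an replicate 1 and without Nubian replicate 1, and those other than JAG1 also without Du'an replicate 2. With the stricter gate ACVR1 (-0.43), SMAD7 (-1.91), IRS1 (-0.68) and JAG1 (-1.66) were called, and JAG1 missed the threshold in the depth window (-0.70, adjusted p = 0.288 by edgeR). Over all 12937 genes, the stricter gate called 1566 higher and 1248 lower. In these lists it also gave calls in the higher direction: 2 rose and 1 fell of the inhibin, activin and AMH genes, 0 and 3 of the BMP receptors and SMADs, 3 and 0 of the steroid hormone receptors, and 2 and 4 of the growth factor and NOTCH genes. Among the receptors that rose was ESR1 (0.48, adjusted p = 0.0204 by edgeR), an estrogen receptor.

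Of 15 granulosa transcription factors, 2 rose and 2 fell, beside the same backgrounds of 6.33% and 5.47% (median -0.04). GATA4, which activates steroid and inhibin genes, stood at 707, 428, 513 and 435 CPM in cycling and 336, 325, 380.1 and 332 CPM in resting nuclei (0.63 ± 0.15, adjusted p = 0.042 by edgeR). PBX3, a homeobox factor, rose by 0.70 (adjusted p = 0.0241 by edgeR), and missed the threshold in the depth window of the stricter gate (0.38, adjusted p = 0.0805 by edgeR). RUNX2, which granulosa cells raise around ovulation, stood at 829, 499, 289 and 303 CPM against 4587, 679, 739 and 1814 CPM. RUNX2 fell (-1.66 ± 0.38, adjusted p = 0.0397 by edgeR), and so did FOXO3 (-0.72 ± 0.14, adjusted p = 0.0267 by edgeR), a factor that holds cells in quiescence. All 4 of these calls were lost without Du'an replicate 1 or Nubian replicate 1, those of GATA4 and FOXO3 also without Du'an replicate 2 and that of RUNX2 also without Nubian replicate 2. All 4 were made with the stricter gate. It called 3 higher and 3 lower of 14, SOX4 among the latter, beside 1566 and 1248 of all 12937 genes. None of the 6 progenitor-side granulosa genes was called, at a median of -0.90. ENPP1 and ARNT2 were called lower with the stricter gate (2 of 6, beside 1248 of all 12937 genes). In its depth window ANKH, CDK14 and ARNT2 were called lower (3 of 5, beside 878 of 11177 genes). With nuclei of 4000 to 10000 UMIs these 4 genes of 6 were (beside 1084 of 12574 genes). The filters of the study gave 4 lower and 1 higher, beside 1982 lower and 1836 higher of 13824 genes. By an unadjusted p below 0.05, 3 of the 6 passed, beside 4370 of all 14763 genes.

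Of 15 genes of cholesterol synthesis and uptake, 4 rose and 0 fell, beside 6.33% and 5.47% of all genes (median 0.53). Among the 4 were MVD and MVK of the mevalonate pathway, and INSIG1, its sterol sensor. MVK stood at 12.1, 12.5, 11.4 and 9.93 CPM in cycling and 4.14, 7.72, 7.01 and 4.61 CPM in resting nuclei (1.05 ± 0.22, adjusted p = 0.0292 by edgeR). With the stricter gate MVK (0.99) was called, and MVD (0.37) and INSIG1 (0.47) were not. That gate called 6 of the 15 higher, beside 1566 of all 12937 genes, and its depth window 4, beside 1080 of 11177 genes. The filters of the study called 12 of the 15 higher (median 0.64), beside 1836 of 13824 genes. The calls of MVD, MVK and INSIG1 were lost without Du'an replicate 1, Du'an replicate 2 or Nubian replicate 1. Of 13 mitochondrially encoded transcripts, which are not made in the nucleus, 0 rose and 1 fell (ND5, median -0.71). Their share of UMIs had a median of 0.315, 1.09, 1.02 and 0.76% in cycling and 0.8, 2.49, 2.36 and 1.49% in resting nuclei. The ND5 call was lost without Du'an replicate 1, Du'an replicate 2 or Nubian replicate 1. The list's median moved to -0.45 with the stricter gate (5 of 13 lower, beside 1248 of all 12937 genes) and -0.11 in its depth window (0 lower).

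A set of 11 genes named in the study was taken beside the lists. The study names SERPINE2, ROBO1, MFGE8 and INHA among genes upregulated with prolificacy in several cell types. That contrast was between Nubian and Du'an goats, so the values of cycling against resting nuclei below do not bear on it. It reports BRCA1, MYBL1 and E2F7 as transcription factors active in internal theca cells, and names the others elsewhere in its account of transcription factors. Of the 11 genes, BRCA1, E2F7 and MYBL1 were higher in cycling nuclei of every goat, in step with the cell-cycle lists above. BRCA1, a repair gene of S phase, stood at 150.2, 135, 147 and 100.1 CPM against 4.51, 6.77, 5.89 and 8.32 CPM. E2F7, an E2F repressor of late S phase, stood at 28.3, 24.2, 35.1 and 24.99 CPM against 0.781, 0.781, 0.505 and 1.21 CPM, and MYBL1, a MYB factor, at 49.3, 47.9, 70.6 and 35.5 CPM against 2.67, 5.70, 5.02 and 4.29 CPM. The other members of these 11, apart from GATA4 and PBX3 described above, were not called by edgeR: HMGA2 0.06 ± 0.26, FOXO1 -0.16 ± 0.24, SERPINE2 -0.12 ± 0.30, ROBO1 -0.48 ± 0.19, MFGE8 -0.13 ± 0.15 and INHA -0.05 ± 0.31. ROBO1 was called lower in the depth window of the stricter gate (-0.70, adjusted p = 0.0285 by edgeR) and with all gated nuclei of 4000 to 10000 UMIs (-0.62, adjusted p = 0.0418 by edgeR).

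Outside the lists, genes with the largest rise included PIF1 (6.94 ± 0.21), PRR11 (6.81 ± 0.38), SHCBP1 (6.52 ± 0.26) and CDCA2 (6.36 ± 0.14). PIF1 is a DNA helicase and CDCA2 a phosphatase partner on mitotic chromosomes. Among genes that reached a mean of 20 CPM in the higher class and moved the same way in every goat, those with the largest fall were of another kind. IL7R (-2.79 ± 0.43), the interleukin 7 receptor of lymphocytes, was too low to be tested with the stricter gate. PREX2 (-2.76 ± 0.18), MECOM (-2.57 ± 0.34) and ABCB1 (-2.39 ± 0.29), which vessels also express, moved to -0.83, -0.62 and -0.87 with the stricter gate, and C16H1orf158 (-2.40 ± 0.22) to -0.44. PREX2 and C16H1orf158 lost their calls there. In its depth window PREX2, MECOM and ABCB1 stood at -0.45, -0.12 and -0.28, and none of them was called. The call of IL7R was lost without Du'an replicate 1 or Du'an replicate 2. Markers of blood endothelium and of T or natural killer cells were also lower in cycling nuclei of every goat, and their part was not tested. Lymphatic endothelial markers did not share a direction. They summed to 491, 445, 180 and 316 CPM in cycling and 311, 713, 511 and 316 CPM in resting nuclei. The 8 of 8 blood endothelial markers with a UMI summed to 87.7, 144, 83.9 and 118 CPM in cycling and 256, 367, 345 and 163 CPM in resting nuclei, led in UMIs by PTPRB in the latter. The 8 of 8 markers of T or natural killer cells with a UMI summed to 19.1, 365, 109 and 149 CPM in cycling and 78.0, 627, 170.3 and 186 CPM in resting nuclei, led by PTPRC.

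The second comparison set cycling granulosa nuclei against the 127 other cycling nuclei (12, 49, 13 and 53 per library), which share the cycling gate. Of the Du'an replicate 2 nuclei, 71.4% carried at least 3 markers of T or natural killer cells, and of the Nubian replicate 2 nuclei 64.2% carried at least 3 of macrophages. The other cycling nuclei had median depths of 2383.5, 6251, 5264 and 30731 UMIs. Of 11791 genes tested with edgeR and a goat block, 2327 were higher (19.7%) and 2305 lower (19.5%), with a median of 0.17. The granulosa lists were higher in cycling granulosa nuclei, as the gate implies: for example 10 of 11 inhibin, activin and AMH genes and 10 of 16 growth factor and NOTCH genes. The shares of replication, kinetochore and spindle genes called were near or below the backgrounds. Without Du'an replicate 2 the counts were 1353 higher and 1121 lower, and without Nubian replicate 2 they were 1191 and 1495. The stricter gate for the granulosa class gave 2346 higher and 2753 lower of 10914 genes.

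Among 42 DNA replication genes, 1 rose and 5 fell (median -0.04), beside backgrounds of 19.7% and 19.5%. PCNA stood at 5.61, 25.5, 14.7 and 107 CPM in cycling granulosa nuclei and 87.8, 159, 109 and 313 CPM in other cycling nuclei. It was lower in every goat (-2.48 ± 0.37, adjusted p = 0.00236 by edgeR). MCM3 and MCM4 of the helicase, the flap nuclease FEN1 and the histone chaperone ASF1B also fell, and PRIM2 rose (1.15 ± 0.39, adjusted p = 0.042 by edgeR). The calls of PCNA, FEN1 and ASF1B were made without each library in turn. That of PRIM2 was lost without Du'an replicate 1, Nubian replicate 1 or Nubian replicate 2, that of MCM3 without any library but Du'an replicate 1, and that of MCM4 without any but Nubian replicate 1. Of 8 nucleotide supply genes, 0 rose and 5 fell (RRM2, TYMS, TK1, DTYMK and DCK, median -1.15), and of 20 repair genes, 5 rose and 0 fell (BRIP1, ATR, POLQ and MSH6 among them, median 0.82). The nucleotide supply calls were all lost without Du'an replicate 2, and the repair calls all without Du'an replicate 1. Of 35 kinetochore genes, 6 rose and 3 fell (CENPW, SPC24 and MAD2L1). Of 47 spindle genes, 7 rose and 1 fell, the securin PTTG1. Of the 20 genes of the later cyclin list, 1 rose (SKP2) and 4 fell (CDC25B, CKS1B, CKS2 and CDC20), no more than the backgrounds of 19.7% and 19.5% would give. CKS2, a small subunit of CDK complexes, stood at 51.3, 45.3, 46.4 and 168 CPM against 509, 339, 153 and 224 CPM (-1.89 ± 0.45, adjusted p = 0.011 by edgeR). Calls of CENPW, SPC24, MAD2L1 and PTTG1 were made without each library in turn. Those of CDC25B, CKS1B, CKS2 and CDC20 were lost without Du'an replicate 2, and that of SKP2 without Nubian replicate 2. When the stricter gate was used, 1 replication gene rose and 8 fell (median -0.13), 8 kinetochore genes rose and 5 fell, 7 spindle genes rose and 4 fell, and 8 repair genes rose and 0 fell. Over all 10914 genes tested with that gate, 2346 rose and 2753 fell.

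The lowest median among the cell-cycle lists was that of chromatin proteins and tubulins (-2.11). Of its 8 genes, 0 rose and 5 fell, beside 19.7% and 19.5% of all genes. HMGB1, an abundant DNA-bending protein, stood at 121, 184, 138 and 498 CPM in cycling granulosa nuclei and 1343, 971, 854 and 933 CPM in the others (-2.14 ± 0.42, adjusted p = 0.00593 by edgeR). The groups did not overlap. HMGB2 and STMN1, a tubulin-binding protein, were lower by 2.56 and 2.08 on the log2 scale (adjusted p = 0.00404 and 0.005 by edgeR). HMGN2, a nucleosome-binding protein, and TUBB, a beta tubulin, also fell, the latter not without Du'an replicate 2. Mitochondrially encoded transcripts moved with these genes, 0 of 13 higher and 10 lower (median -1.83), beside the same backgrounds, and their part was not tested. By the stricter gate 5 of the 8 chromatin proteins and tubulins and 13 of the 13 mitochondrial transcripts were lower, beside 2753 of all 10914 genes. Of the 5 genes of the G1 list, 2 rose and 2 fell, beside 19.7% and 19.5% of all genes, and the D cyclins parted. CCND2 stood at 189, 142, 68.0 and 139.9 CPM against 8.78, 44.6, 65.7 and 7.24 CPM and was higher in granulosa (2.63 ± 0.62, adjusted p = 0.0105 by edgeR), whereas CCND3 stood at 34.5, 76.6, 24.97 and 77.5 CPM against 176, 152, 120.4 and 136 CPM and was lower (-1.36 ± 0.34, adjusted p = 0.0129 by edgeR). CDK6, lost without any library but Nubian replicate 1, was higher with CCND2, and CDK4 lower with CCND3. Outside the lists, LRRC3B had 0 UMIs in other cycling nuclei and was at least 34.0-fold higher in granulosa, with a floor of 3 counts over the group. The next by the same rule, CNBD2, A4GALT, LZTS1 and CDH12, had 1 or 2 UMIs over all other cycling nuclei. The largest lower genes were CD3G, CD2, CD1E, CLEC5A and CD3D, which are genes of lymphocytes and myeloid cells.

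**Figure D4:**
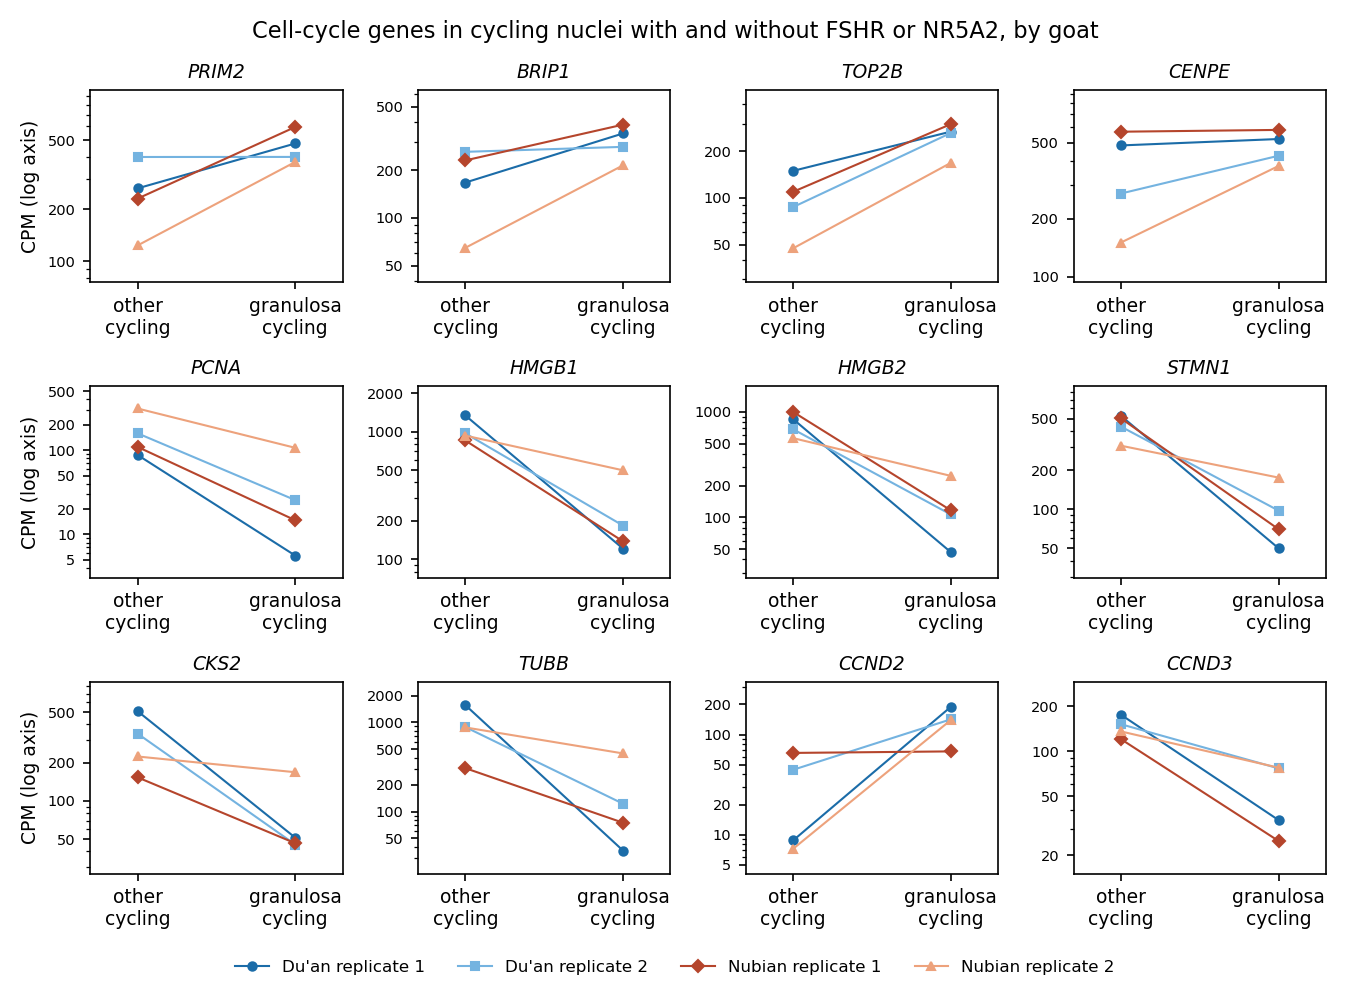
Level in other cycling nuclei (left) and cycling granulosa nuclei (right) for 12 cell-cycle genes, in CPM on log axes, with a line per goat. Lines of HMGB1, PCNA and CCND3 fall from left to right in all 4 goats, and those of CCND2 rise, barely so in Nubian replicate 1.

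Cycling nuclei were a larger share of granulosa-gated nuclei in both Nubian goats, but the exact test over 4 goats cannot pass the threshold. The shares were 5.91, 6.01, 9.16 and 7.54%, with exact binomial 95% intervals (counting error only, also below) of 5.29 to 6.58%, 5.50 to 6.56%, 8.64 to 9.69% and 6.88 to 8.23%. The Nubian mean was 8.35% and the Du'an mean 5.96%, and the breeds did not overlap. The two-sided exact permutation test gave p = 0.33, the smallest value that 2 against 2 goats allow. Under the stricter gate the shares were 8.94, 7.14, 12.4 and 10.1%, and with the filters of the study 4.19, 4.92, 7.76 and 6.42%. With each nucleus thinned to 2000 UMIs and shallower nuclei left out, 107, 170, 540 and 171 of 3542, 5868, 8045 and 3977 nuclei passed, which is 3.02, 2.90, 6.71 and 4.30%. Under each of these the Nubian goats lay above the Du'an goats. In these whole-ovary libraries, fewer cycling cells and fewer nuclei recovered from them cannot be told apart.

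Cycling nuclei were found in all granulosa subtype gates. Here the cycling genes were counted after thinning each nucleus to 2000 UMIs, whereas the granulosa and subtype gates used all its UMIs. The share among mural nuclei (a UMI of CYP19A1 and of LHCGR) was 1.93% (39 of 2023, interval 1.37 to 2.63%) in Du'an replicate 2. It was 7.71% (362 of 4698, interval 6.96 to 8.51%) in Nubian replicate 1 and 4.60% (16 of 348, interval 2.65 to 7.36%) in Nubian replicate 2. Du'an replicate 1 had 0 of 2 mural nuclei, too few to give a share. Among progenitor nuclei (at least 2 of ENPP1, ANKH and IGFBP5 with no CYP19A1) the share was 1.04, 2.43, 2.64 and 3.31%, and among the other granulosa-gated nuclei 3.42, 3.38, 5.21 and 4.02%. Before thinning, median depths were 9010, 9403, 6017 and 8124.5 UMIs in progenitor and 6055, 5309, 4162 and 5321.5 UMIs in other nuclei, so membership of a gate still went with depth. The cycling share of progenitor nuclei was below that of other nuclei in 4 of 4 goats, by a mean of 1.65 percentage points (SD 0.962, n = 4, exact sign-flip permutation test, two-sided, p = 0.13, the smallest that 4 goats allow). With the stricter gate the progenitor difference was -1.10 points and lower in 3 goats, and without thinning it was -1.16 points, lower in 2 goats and higher in 2. Over the 3 goats with a mural share, the mural difference was 0.539 points, higher in both Nubian goats and lower in Du'an replicate 2. Counting the 0 of 2 nuclei of Du'an replicate 1 as a share of 0 made it -0.45 points (SD 2.55, n = 4, exact p = 0.75). The stricter gate left 1 mural nucleus in Du'an replicate 1. In the other 3 goats it gave mural shares of 1.79, 8.63 and 4.41% against 4.33, 6.65 and 4.92% among other nuclei, higher in Nubian replicate 1 alone. The mural gate needs a UMI of LHCGR, which was lower in cycling nuclei as given above.

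**Figure D5:**
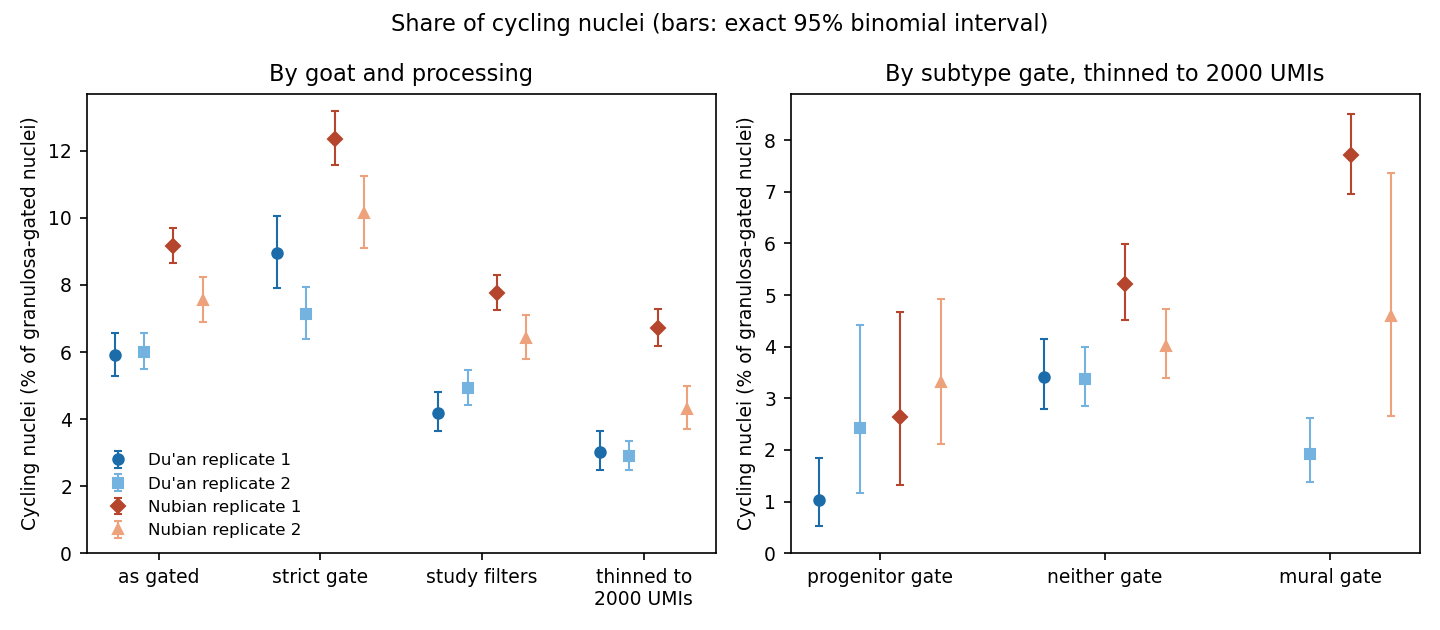
Share of cycling nuclei (percent) among granulosa-gated nuclei by library under 4 settings (left) and by subtype gate (right), with bars for exact 95% binomial intervals. In the right panel the cycling genes were counted after thinning to 2000 UMIs, and the granulosa and subtype gates used all UMIs. Nubian libraries lie above Du'an libraries in the left panel. The mural share of Du'an replicate 1 (2 nuclei) is not drawn.

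The third comparison set the cycling granulosa nuclei of Nubian goats against those of Du'an goats. edgeR called 0 of 13157 genes higher (0%) and 0 lower (0%), with 276 genes at an unadjusted p below 0.05, and DESeq2 called 4 higher and 1 lower. Under the stricter gate edgeR also called 0 of 10796 genes higher and 0 lower (351 at an unadjusted p below 0.05), and the medians of the nucleotide supply and replication lists moved from 0.75 and 0.20 to 0.00 in both, while that of the spindle list went from 0.30 to 0.31. With nuclei of 4000 to 10000 UMIs the medians of the replication and spindle lists were 0.06 and 0.14. With 2 goats per breed, a gene below the threshold is not shown to be alike. Levels of 3838 genes (29.2%) did not overlap between the breeds, and 1002 of those (26.1%) were higher in Nubian goats. The shares of spindle genes (10 of 47) and replication genes (12 of 42) without overlap were below the 29.2% of all genes. Of these genes, 10 of the 10 spindle genes and 9 of the 12 replication genes were higher in Nubian goats, counts that were not repeated with the stricter gate. A gene without overlap has p = 0.33 by the exact permutation test over 2 against 2 goats. Lack of overlap is therefore a description and not a breed difference. Among 14 granulosa transcription factors, 6 did not overlap, and 0 of them were higher in Nubian goats. This was not particular to them. Without overlap were 4 inhibin, activin and AMH genes, 3 BMP receptors and SMADs and 5 cholesterol genes, and 0 of these were higher either. Of 9 such growth factor and NOTCH genes, 2 were higher. AMH stood at 53.5, 60.0, 10.96 and 19.4 CPM, lower in both Nubian goats (adjusted p = 0.951 by edgeR). CYP19A1 stood at 38.7, 326, 1385 and 194 CPM, where the breeds overlapped. ROBO1, a guidance receptor, stood at 156, 208, 3422 and 266 CPM, far higher in Nubian replicate 1 than in the other 3 libraries. A test of whether the difference between cycling and resting nuclei itself differed by breed called 0 of 14763 genes by edgeR (375 at an unadjusted p below 0.05, smallest adjusted p of 0.642).

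Nearly all cycling granulosa nuclei held more mitotic than replication transcripts. UMIs of the kinetochore and spindle lists exceeded those of the replication and nucleotide lists in 2266 of 2326 nuclei (97.4%), with medians of 106 and 16 UMIs. The reverse held in 56 nuclei (2.41%), of which 8, 9, 16 and 23 came from the 4 libraries. In Nubian replicate 2 these 23 nuclei had a median of 48978 UMIs, against 7955 UMIs in its other cycling granulosa nuclei with a mitotic excess. Granulosa genes did not run the same way in every library. GATA4 stood at 982, 52.1, 383 and 57.8 CPM in the nuclei with more replication transcripts and 700.2, 443, 516 and 519 CPM in those with more mitotic transcripts. FST stood at 1366, 68.2, 298 and 36.6 CPM against 1128, 499, 591 and 402 CPM, and CYP19A1 at 42.7, 16.0, 1531 and 15.3 CPM against 38.7, 338, 1379.8 and 234 CPM. All 3 genes were lower in the replication-leaning nuclei of Du'an replicate 2 and Nubian replicate 2 and higher in those of Du'an replicate 1, whereas in Nubian replicate 1 CYP19A1 was higher and GATA4 and FST were lower. Few nuclei stand behind these values, Nubian replicate 2 had the highest macrophage markers, and the part of other cell types was not tested. In 4 nuclei the sums were equal, and 29 nuclei lay within 2 UMIs of equality. The gate itself is made mostly of mitotic genes and the lists differ in number and in UMIs per gene, so this split describes the gated nuclei and gives no share of cells in S phase.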

How the data were processed

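Ovaries of 2 Du'an and 2 Nubian goats gave 1 single-nucleus library each (Chromium 3' kit, version 3 chemistry). The authors deposited raw UMI counts per gene and nucleus for each library, called as nuclei by Cell Ranger and without normalization. The submitters' processing notes name version 5.0.0 of it, whereas the matrix header carries 3.1.0. The genome is given by an assembly number only, so no coordinates are printed, and genes were taken by symbol, with 2 list members matched through the synonyms of RefSeq's table of assembly ARS1.2. Of 345 genes in 20 functional lists, 336 were matched among 28944 features. The authors also deposited 2 tables of their own fold changes and p-values for granulosa subtypes and follicle stages, which were not used.

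Nuclei were gated as described in the report. Counts were summed per class and library over 4 libraries, and the 11 gate genes left every fit, because they chose the nuclei. Sums were tested with edgeR 4.0.16 in R 4.3.3 (TMM, filterByExpr, quasi-likelihood test, Benjamini-Hochberg adjustment over all genes tested, threshold 0.05), with the goat as a block within goats. The SE is the size of the log2 fold change divided by the square root of F. Shares of nuclei were compared with exact permutation tests over goats (scipy 1.17.1), after thinning each nucleus at random to 2000 UMIs where stated. For the subtype shares, the cycling genes alone were taken from the thinned counts. DESeq2 1.42.0 was an alternative. The fits were tested on simulated data with known changes. The fit between breeds did not recover changes planted at 2 goats per breed, so its counts of 0 give no evidence that genes were alike.

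The gate, the lists and the tests were chosen with earlier results of these data known. Named genes were the gate genes, the 3 members with most UMIs in each list, up to 5 genes per direction with the largest change outside the lists (called, the same way in every goat, at least 20 CPM in the higher class), the genes named in the study, called members of lists with 5 or fewer calls in a direction, and members named for their role. The last 2 sets were chosen after their values were seen. A few genes of these sets are not reported here. Lists of the cell cycle other than the G1 cyclins and the inhibitors in the comparison with resting nuclei, and of granulosa function in that with other cycling nuclei, follow from the gate and are described without p-values. No doublets were removed: Scrublet's automatic threshold (scanpy 1.11.5) marked 0 nuclei in 3 libraries and 151 in Du'an replicate 2, which was taken as not having worked, and the 10% of nuclei with the highest scores were left out in an alternative.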

Additional observations from a re-analysis of the deposited data

Results flagged for a closer look

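The cycling share of mural granulosa nuclei relative to the other granulosa-gated nuclei differed between the breeds. The cycling genes were counted at 2000 UMIs per nucleus, and the granulosa and subtype gates used all UMIs. It was higher in mural nuclei in both Nubian goats and lower in Du'an replicate 2. Du'an replicate 1 had 0 cycling nuclei among only 2 mural nuclei, which gives no direction. Counted as a share of 0, it makes the mean difference between the breeds 3.97 percentage points. The difference was not tested. With the stricter gate Nubian replicate 2 turned, at 4.41% of mural and 4.92% of other nuclei.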

How the results depend on the processing

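Between cycling and resting nuclei, DESeq2 called 1389 genes higher and 1311 lower. The filters of the study gave 1836 higher and 1982 lower, and the stricter granulosa gate, chosen after seeing the data, 1566 and 1248. Without the goat block the counts were 556 and 162. Leaving out 1 library at a time gave 461 to 1049 higher and 184 to 940 lower genes. PDE4D reversed to a log2 fold change of 0.25 with the stricter gate and 0.26 in its depth window. Against other cycling nuclei, the counts were 1540 higher and 443 lower without the goat block, and 1191 to 2278 and 1121 to 2355 without 1 library at a time. A gate of 5 of the 9 genes, 2000 or more UMIs, the filters of the study and the depth window left fewer than 10 nuclei in a sum there and were not run. Between breeds, DESeq2 called 4 genes higher and 1 lower, and edgeR called 0 without any library in turn and 0 with replicate number as a replicate block (1100 at an unadjusted p below 0.05). The labels share only a number between breeds, and same-numbered goats deviated together with r = 0.341 across 13157 genes, which are not independent replicates. The breed difference in cycling share ran from 1.58 to 3.19 percentage points without 1 library at a time. The mural difference was 0.0844 points without thinning and -1.43 to 0.539 points without 1 library at a time, the highest without Du'an replicate 1, so its direction reversed. The progenitor difference ran from -1.97 to -1.34 points, and was -1.16 without thinning. Of 1979 values of 117 named genes under the alternatives to the comparison with resting nuclei, 1737 kept direction and side of the threshold, 150 lost and 90 gained a call. Against other cycling nuclei, 1094 of 1282 did, 163 lost and 25 gained a call. Depth limits genes of a few CPM and the 12 and 13 other cycling nuclei of Du'an replicate 1 and Nubian replicate 1.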
